A study of Rattus norvegicus with 18 samples.

Results

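The 33 genes described here encode proteins of fatty acid uptake, activation and mitochondrial oxidation, with some that release fatty acids or control fuel use. They were chosen by gene symbol as a named list, each symbol matched 1 row, and they are 33 of 19880 genes in the table. Of these members, 32 had enough counts for a test among 14870 genes. Ucp3, a mitochondrial uncoupling protein of muscle, did not, with 0 to 2 counts per library. RNA was sequenced from ventricular cardiomyocytes of Sprague-Dawley rats, isolated on postnatal day 2 after a pre-plating step that removes adherent other cells, and cultured in high-glucose medium with serum. All 18 libraries come from cells that had received phenylephrine (PE), an alpha-1 adrenergic agonist that drives hypertrophic growth, at 20 µM for 24 h, and an adenovirus. The virus carried a short open reading frame called sORF6, sORF7 or sORF8 (3 libraries each), or was the control virus of sORF6, of sORF7 or of sORF8 (3 libraries each). No library without PE or without virus was analysed here, and the labels give neither the sequence of a sORF nor whether the 3 libraries of a group were separate cultures, so p-values measure the spread between libraries, which may be technical.

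Fatty acids are the main fuel of the adult heart, and their oxidation enzymes rise as the heart matures after birth, while the newborn and the hypertrophied heart lean more on glucose. In the pathway, lipoprotein lipase frees fatty acids from circulating lipid, membrane proteins take them up, binding proteins carry them through the cytosol, and acyl-CoA synthetases activate them. The carnitine shuttle then moves the acyl group into the mitochondrion, where repeated rounds of beta-oxidation shorten it and pass electrons to the respiratory chain. Many of these genes are targets of the nuclear receptors PPAR and ERR.

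Depth ran from 15697177 to 17658137 counts per library, with the sORF8 control libraries lowest. The cells carried their label's markers: all 12 cardiomyocyte markers were detected, with cardiac actin Actc1 at 14700 to 24900 CPM (counts scaled to a common library total), and markers of other cells were present too. Fibroblast Col1a1 was at 4930 to 5940 CPM, Postn at 366 to 494 CPM and Lum, the lowest of that list, at 25.7 to 36.1 CPM. Endothelial Kdr, the highest of its list, was at 29 to 45.4 CPM and Pecam1 at 1.6 to 3.02 CPM. Macrophage Adgre1 was at 44.8 to 88.9 CPM, but the other macrophage markers were lower, from Csf1r at 6.06 to 16.2 CPM to Aif1 at 1.98 to 3.76 CPM. Smooth muscle and pericyte markers ran from Cnn1 at 273 to 355 CPM to Rgs5 at 0.286 to 1.41 CPM. Of 8 genes listed for adipocytes, Fasn (362 to 509 CPM) and Cidea (31.8 to 57.2 CPM) were tested, and Adipoq, Plin1, Cidec and Lep had at most 3 counts in any library. A pair of libraries stood apart from their labels. Replicate 2 of the sORF6 control correlated better with the sORF7 controls (mean r of 0.99175) than with its own group (0.99048), and replicate 1 of the sORF7 control better with the sORF6 controls (0.99152) than with its own (0.99131). Calls and named values of members that rest on these controls are also given without both libraries where that changes a call. For cell type markers and other fatty acid genes, the counts called without both are given where they changed. The pair was picked from these same data for that likeness, so calls made without it are not separate support.

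Levels are compared between genes in FPKM, which corrects for transcript length, as the lowest, median and highest of 18 libraries. The members were abundant: 28 lay over 10 FPKM in the mean of the 9 control libraries, 6 were among the 1000 highest genes of the table, and their median was 35.2 FPKM against 8.08 FPKM for all genes tested. Fabp3, the heart fatty acid binding protein, stood first with a lowest value of 326, a median of 586 and a highest value of 655 FPKM. Hadhb, the beta subunit of the mitochondrial trifunctional protein, followed at 167, 174 and 191 FPKM, the narrowest relative spread of FPKM of any member (coefficient of variation 4.18%). Acadl, the long-chain acyl-CoA dehydrogenase, lay at 89.6, 139 and 151 FPKM and Hadha, the alpha subunit of the trifunctional protein, at 112, 128 and 134 FPKM. Etfa, a subunit of the flavoprotein that takes electrons from the dehydrogenases, closed the first 5 at 87.7, 101 and 124 FPKM.

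The order ran over a 325-fold range from Fabp3 to Acot1, and 21 of 31 neighbours in it differed by less than the larger of their standard deviations (SD), so most ranks in the middle are not separated. Gaps beyond that SD set apart Fabp3, Hadhb and the pair Acadl and Hadha at the top, and Acot2, Slc27a1 with Pdk4, Fabp4 and Acot1 at the bottom, with a few more in the middle. Fabp4, the binding protein of adipocytes, macrophages and endothelium, had a median of 2.30 FPKM and Ucp3 of 0.02 FPKM. Carnitine palmitoyltransferase 1, which commits fatty acids to the mitochondrion, was mostly of the muscle form: Cpt1b had a median of 51.8 FPKM and the liver form Cpt1a of 19.8 FPKM. Among the acyl-CoA synthetases, Acsl1, the main form of adult heart, and Acsl3 both had a median of 40.1 FPKM, and Acsl4 one of 17.3 FPKM.

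**Figure D1:**
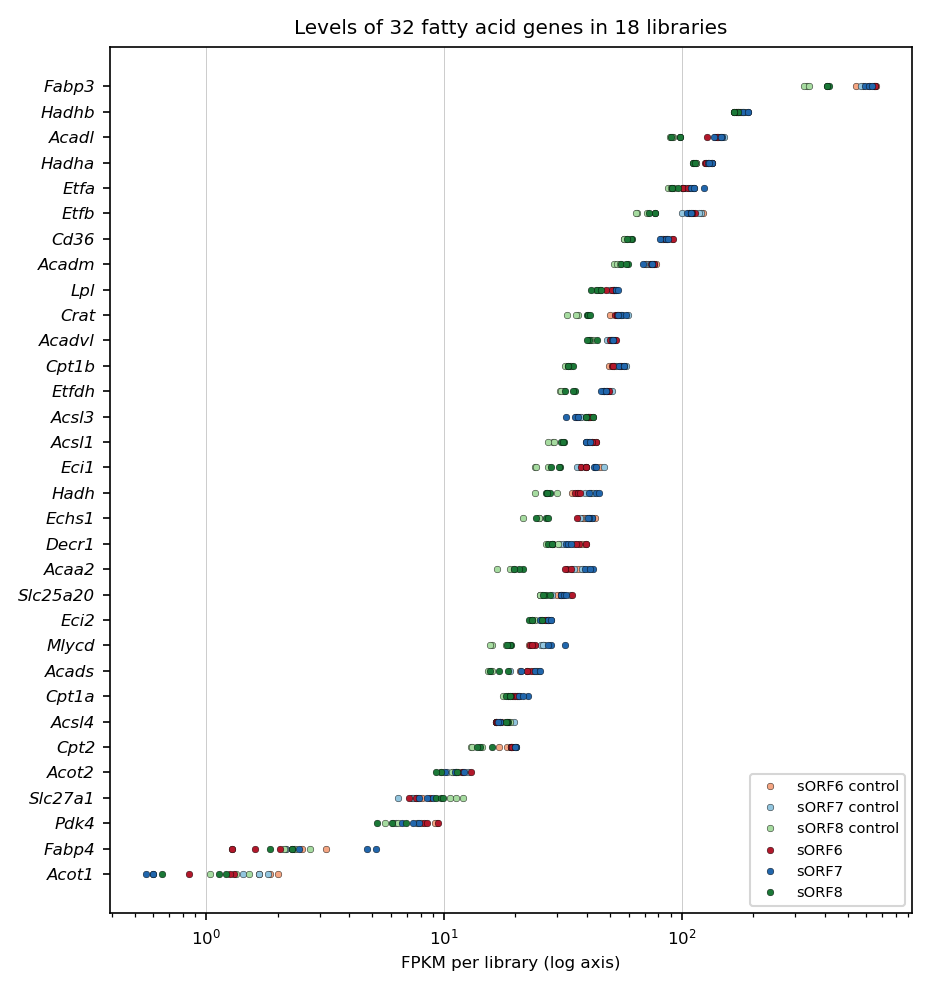
FPKM of the 32 tested genes (log axis), 1 point per library and 1 colour per group, ordered by the mean of the 9 control libraries. Fabp3 lies highest at 326 to 655 FPKM and Acot1 lowest at 0.56 to 2.01 FPKM, and in most rows the green points of the sORF8 experiment lie to the left.

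Hadha and Hadhb are neighbours that start back to back and encode the subunits of a single enzyme complex, so the stretch between them is shown. In the deposited table (Rnor_6.0) Hadhb spans 27555408 to 27589539 on the minus strand of chromosome 6 and Hadha 27589840 to 27637671 on the plus strand. In RefSeq (build GRCr8) the start sites lie 301 bases apart, and the 300 bases between them, chr6:31907501-31907800, read on the plus strand, run from Hadhb to Hadha. Capitals mark the 200 bases that lie within 250 bases of both start sites. GC content was 57% over the whole stretch.
Hadhb to Hadha: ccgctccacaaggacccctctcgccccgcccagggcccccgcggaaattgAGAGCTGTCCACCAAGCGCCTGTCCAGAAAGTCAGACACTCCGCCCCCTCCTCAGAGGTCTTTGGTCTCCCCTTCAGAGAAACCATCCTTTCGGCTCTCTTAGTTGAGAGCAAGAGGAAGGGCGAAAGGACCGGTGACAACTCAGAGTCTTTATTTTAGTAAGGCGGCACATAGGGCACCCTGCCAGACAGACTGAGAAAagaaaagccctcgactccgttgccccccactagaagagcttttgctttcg

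The first question was whether a sORF virus changed these genes relative to its own control virus. Few members changed. With sORF8, 3 of 32 members were higher (2.03% of all genes were) and 0 lower (1.72%), all with small folds and led by Fabp3. With sORF7, 2 were lower (3.66%) and 0 higher (4.12%), and with sORF6 0 were higher (0.968%) or lower (2.88%). Calls throughout are edgeR quasi-likelihood tests with Benjamini-Hochberg adjustment over 14870 genes at an adjusted p under 0.05. Levels are in normalised CPM, and a value after ± on the log2 scale is a standard error (SE).

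With sORF8, Fabp3 was at 259, 264 and 260 CPM against 212, 206 and 216 CPM in its control virus libraries. The groups did not overlap, and the log2 fold change was 0.31 ± 0.06 (1.24-fold, edgeR adjusted p = 0.00459). Crat, which trades acetyl groups between CoA and carnitine and so buffers mitochondrial acetyl-CoA, had 108, 109 and 112 CPM with sORF8 against 98.0, 89.7 and 96.2 CPM. Its log2 fold change was 0.21 ± 0.05 (1.16-fold, edgeR adjusted p = 0.0208), again without overlap. Acsl1 was at 117, 114 and 117 CPM against 106, 107 and 100 CPM, all 3 sORF8 libraries being higher, with a log2 fold change of 0.15 ± 0.04 (1.11-fold, edgeR adjusted p = 0.0292). The call of Fabp3 held in 16 of 16 alternative fits, and that of Crat was lost in 4 of 16 (highest adjusted p 0.11), without sORF8 replicate 2 or 3 or control replicate 2 or 3. That of Acsl1 was lost in 6 of 16 (highest adjusted p 0.167), 5 of them without 1 library, which was any of the 3 sORF8 replicates or control replicate 1 or 3.

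These 3 calls are 9.38% of the members tested, beside 3.75% of all genes called in this comparison. Among all members, 24 of 32 had a positive and 8 a negative log2 fold change, with a median of 0.07 against 0.00 for all genes. In 11 members all 3 sORF8 libraries lay above all 3 controls, where 11.6% of all genes did so, and in 2 they lay below (12.9% of genes). Besides the called ones these were Cd36, the fatty acid translocase, Slc25a20, the carnitine-acylcarnitine carrier, Acadm, Acaa2, Eci1, Etfb, Etfdh and Mlycd on the high side, and Slc27a1 and Hadhb on the low side. Slc27a1, the transporter FATP1, had 29.3, 30.7 and 31.5 CPM with sORF8 against 33.3, 37.8 and 34.8 CPM, and a log2 fold change of -0.21 ± 0.08 that missed the threshold (edgeR adjusted p = 0.167). Hadhb was at 343, 331 and 332 CPM against 354, 363 and 359 CPM, and its log2 fold change of -0.10 ± 0.03 also missed it (edgeR adjusted p = 0.097).

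Cardiomyocyte markers moved the same way in these libraries. All 12 had a positive log2 fold change with sORF8 (median 0.27), 7 of 12 were called higher, among them Myh6, the adult alpha myosin (0.80 ± 0.07), and the summed level of the 12 was 48100 to 50100 CPM with sORF8 against 40100 to 40500 CPM with its control. Of the fibroblast, endothelial and macrophage markers edgeR called 0. Without both libraries that stood apart, 12 of 12 cardiomyocyte markers and 1 of 7 endothelial markers were called higher. In bulk RNA a larger share of cardiomyocytes and more of these transcripts per cardiomyocyte cannot be told apart, and the part of either in the 3 calls was not tested.

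With sORF7, Acot1, a cytosolic acyl-CoA thioesterase that releases free fatty acid, was at 0.896, 0.962 and 0.906 CPM against 2.84, 2.68 and 2.23 CPM with its control virus. It was lower in each sORF7 library, with a log2 fold change of -1.48 ± 0.25 (edgeR adjusted p = 0.000861), and the call held in 16 of 16 alternative fits, among them the one without both libraries that stood apart (-1.41, edgeR adjusted p = 0.0051). This rests on few reads, 16 to 17 counts per sORF7 library against 39 to 49. The gene's interval on chromosome 6 (107485088 to 107493082, Rnor_6.0) also overlaps those of its near copies Acot2 (107460596 to 107491259) and Acot3, between which the authors' counting may divide reads, so the value is uncertain. Acot2, the mitochondrial form, had 26.1, 23.9 and 28.3 CPM with sORF7 against 27.0, 30.3 and 24.6 CPM, with overlapping groups.

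Acot1 had 2.09, 1.98 and 1.38 CPM with sORF6 against 2.93, 3.19 and 2.62 CPM, also without overlap, but its log2 fold change of -0.68 ± 0.23 missed the threshold (edgeR adjusted p = 0.137). With sORF8 it had 1.89, 1.03 and 1.78 CPM against 2.36, 1.61 and 2.07 CPM (log2 fold change -0.36 ± 0.24, edgeR adjusted p = 0.499), and the groups overlapped. Its share of the FPKM of Acot1 and Acot2 together went from 12.6 ± 1.1% to 5.04 ± 0.479% in the sORF7 experiment (SD, n = 3 each), while it was 14.1 ± 0.807% and 8.51 ± 2.07% in the sORF6 control and sORF6 libraries.

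The second member lower with sORF7 was Acsl3, an acyl-CoA synthetase of the endoplasmic reticulum and lipid droplets, at 97.6, 91.0 and 101 CPM against 115, 106 and 113 CPM. Its log2 fold change was -0.21 ± 0.06 (edgeR adjusted p = 0.0272). The call was lost in 9 of 16 alternative fits (highest adjusted p 0.134), 4 of them without 1 library, sORF7 replicate 1 or 2 or control replicate 1 or 3. Without the pair of libraries that stood apart the value was -0.18 with an edgeR adjusted p of 0.0785. The 2 members are 6.25% of those tested, beside 7.77% of all genes called, and the median member was at 0.00.

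Among members that missed the threshold with sORF7, Fabp4 had the largest value: 2.75, 2.55 and 1.30 CPM against 1.16, 1.17 and 1.26 CPM, a log2 fold change of 0.88 ± 0.31 (edgeR adjusted p = 0.104). Replicate 3 lay next to the controls, and without it the value was 1.14 with an edgeR adjusted p of 0.0318. Slc27a1 was at 24.9, 28.9 and 26.9 CPM against 20.6, 23.9 and 24.0 CPM (log2 fold change 0.24 ± 0.08, edgeR adjusted p = 0.0926), and Hadhb at 378, 366 and 380 CPM against 353, 353 and 356 CPM (0.08 ± 0.03, edgeR adjusted p = 0.127). Without both libraries that stood apart the 3 values were 0.85, 0.17 and 0.08, again not called, while Etfb was called lower (-0.18, edgeR adjusted p = 0.0261). With all libraries kept, Hadhb was called higher with no scaling beyond the library total (0.10, edgeR adjusted p = 0.0448) and with a length offset (0.08, edgeR adjusted p = 0.0437). Limma at either pseudocount called it too (0.10). With no scaling and with limma Acsl3 was not called. Slc27a1 and Hadhb lay without overlap above their controls, as did 7 members in all (11.7% of genes), and the 2 called members lay below theirs (11.3% of genes). Cardiomyocyte markers were lower in 3 of 12 cases with sORF7 and higher in none, with a median of -0.15, and their summed level was 54600 to 56300 CPM against 60900 to 64500 CPM. Of 8 fibroblast markers 3 were lower and 0 higher. Without both libraries that stood apart, 7 of 12 cardiomyocyte markers were called lower and 0 higher, with a median of -0.16. The part of these markers in the values of the members was not tested.

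With sORF6, 0 of 32 members were called by edgeR, beside 3.85% of all genes, and 2 had an unadjusted p under 0.05. DESeq2 and limma on FPKM also called 0. The median member was at -0.00, 16 members were positive and 16 negative, and the groups did not overlap in 3 members: Cpt2 and Acot2 lay above the control libraries (10.0% of genes) and Acot1 below (10.6%). Fabp3 had 402, 426 and 423 CPM against 353, 424 and 374 CPM, a log2 fold change of 0.12 ± 0.06 (edgeR adjusted p = 0.324). Control replicate 2, which stood apart, was the high value of 424 CPM. Without that library the log2 value was 0.20 (edgeR adjusted p = 0.0308). Without both libraries that stood apart it was 0.20 (edgeR adjusted p = 0.00239), and with all libraries kept a length offset also gave a call (0.16, edgeR adjusted p = 0.00651). Across 13472 genes the sORF6 log2 fold changes rose with effective transcript length (Spearman rho 0.212). That of Fabp3 was 641 bases, against a median of 2553 for all genes tested. Length was not tested further. Of 12 cardiomyocyte markers 1 was higher and 1 lower with sORF6, and of 8 macrophage markers 2 were lower. Without both libraries that stood apart, 3 of the 12 cardiomyocyte markers were called higher and 1 lower. The part of these markers was not tested.

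Among the uptake genes, Cd36 and Lpl had small values in all 3 comparisons. Cd36 was at 227, 223 and 239 CPM with sORF6 and 214, 236 and 215 CPM with its control, at 205, 219 and 222 against 223, 218 and 213 CPM for sORF7, and at 156, 155 and 150 against 144, 149 and 144 CPM for sORF8. Its log2 fold changes were 0.05 ± 0.04, -0.02 ± 0.04 and 0.08 ± 0.04 in that order, with edgeR adjusted p of 0.63, 0.872 and 0.382. Lpl, the lipoprotein lipase, stayed between -0.02 and 0.04 in the 3 comparisons, and the 95% interval reached from -0.11 at its lowest to 0.12 at its highest.

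At the carnitine step, Cpt1b had 161, 150 and 150 CPM with sORF6 and 153, 160 and 143 CPM with its control, a log2 fold change of 0.02 with a 95% interval of -0.09 to 0.12. With sORF7 it had 156, 163 and 162 CPM against 153, 170 and 150 CPM (0.02, interval -0.09 to 0.13), and with sORF8 94.6, 99.2 and 95.5 CPM against 95.3, 91.1 and 96.8 CPM (0.03, interval -0.08 to 0.15). Every one of these groups overlapped with its control. Cpt1a had log2 fold changes of 0.04, 0.08 and 0.06, none of them called.

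**Figure D2:**
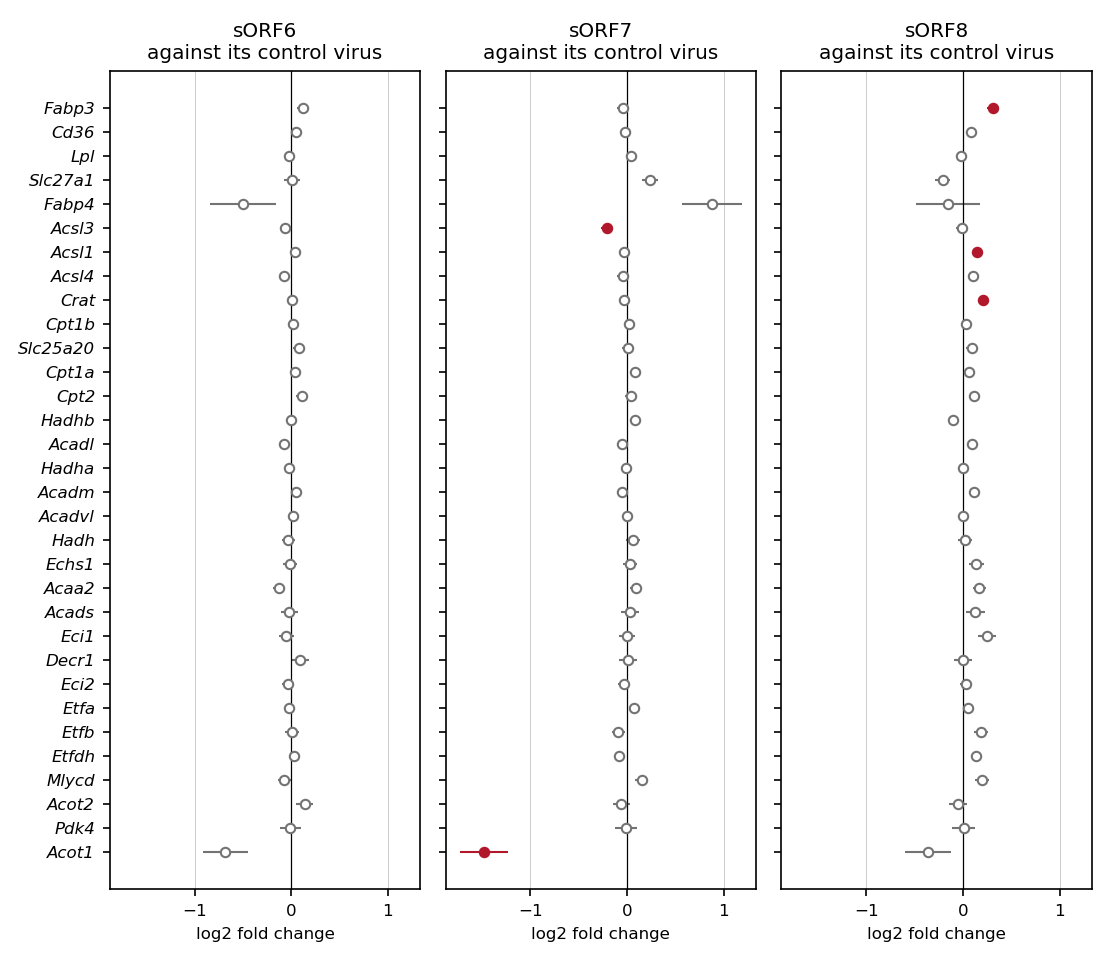
Log2 fold change with its SE for each of the 32 genes, in the sORF6, sORF7 and sORF8 comparisons from left to right, ordered by step of the pathway. Filled red points passed the edgeR test (none with sORF6, Acsl3 and Acot1 with sORF7, Fabp3, Acsl1 and Crat with sORF8), and apart from Acot1 and Fabp4 the points lie close to 0.

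The next comparison asked whether the response of a member differed between sORFs, each response being taken against its own control. Each sORF belongs to its own experiment, so sORF and experiment cannot be told apart in these differences. For sORF7 against sORF8, 5 of 32 members differed (15.6%), beside 7.72% of all genes, with 2 higher with sORF7 (3.80% of genes) and 3 lower (3.92%). Fabp3 and Hadhb kept their call in 22 of 22 alternative fits. For Fabp3 the sORF7 response was -0.04 and the sORF8 response 0.31, a difference of -0.35 ± 0.08 (edgeR adjusted p = 0.0121). Hadhb went the other way, at 0.08 and -0.10, a difference of 0.18 ± 0.04 (edgeR adjusted p = 0.0158).

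Slc27a1 differed in the same direction as Hadhb, by 0.45 ± 0.11 (edgeR adjusted p = 0.0203), with every sORF7 library above and every sORF8 library below its controls. It lost its call in 3 of 22 fits (highest adjusted p 0.0612), without sORF7 replicate 2, sORF8 replicate 1 or sORF8 control replicate 2. Acsl1 and Crat differed in the direction of Fabp3, by -0.19 ± 0.05 (edgeR adjusted p = 0.0378) and -0.24 ± 0.07 (edgeR adjusted p = 0.0422), and lost their calls in 16 and 13 of 22 alternative fits. Cardiomyocyte markers also had a lower response with sORF7 than with sORF8, in 12 of 12 cases by value and 8 of 12 by call (median -0.37). Without both libraries that stood apart, 10 of 12 were called. The part of these markers was not tested. The sORF6 response differed from that of sORF7 in 0 members by edgeR (11.2% of genes, 4.88% higher and 6.27% lower), with 4 members at an unadjusted p under 0.05. From that of sORF8 it differed in 0 members by edgeR (3.69% of genes, 0.868% higher and 2.82% lower), with 8 at an unadjusted p under 0.05. DESeq2 and limma also found 0 in both.

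The 5 members above kept their calls between sORF7 and sORF8 without both libraries that stood apart. Calls then added there were Etfb (-0.37, edgeR adjusted p = 0.00127), Eci1 (-0.35, edgeR adjusted p = 0.0151), Etfdh (-0.25, edgeR adjusted p = 0.0177) and Acadm (-0.20, edgeR adjusted p = 0.0423). Between sORF6 and sORF7 they were Fabp3 (0.30, edgeR adjusted p = 0.000594), Etfb (0.25, edgeR adjusted p = 0.0217) and Fabp4 (-1.64, edgeR adjusted p = 0.0302). With sORF8, whose libraries do not include the pair but share the fit's estimate of spread, Hadhb (-0.09), Eci1 (0.25) and Etfb (0.19) were then called as well.

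**Figure D3:**
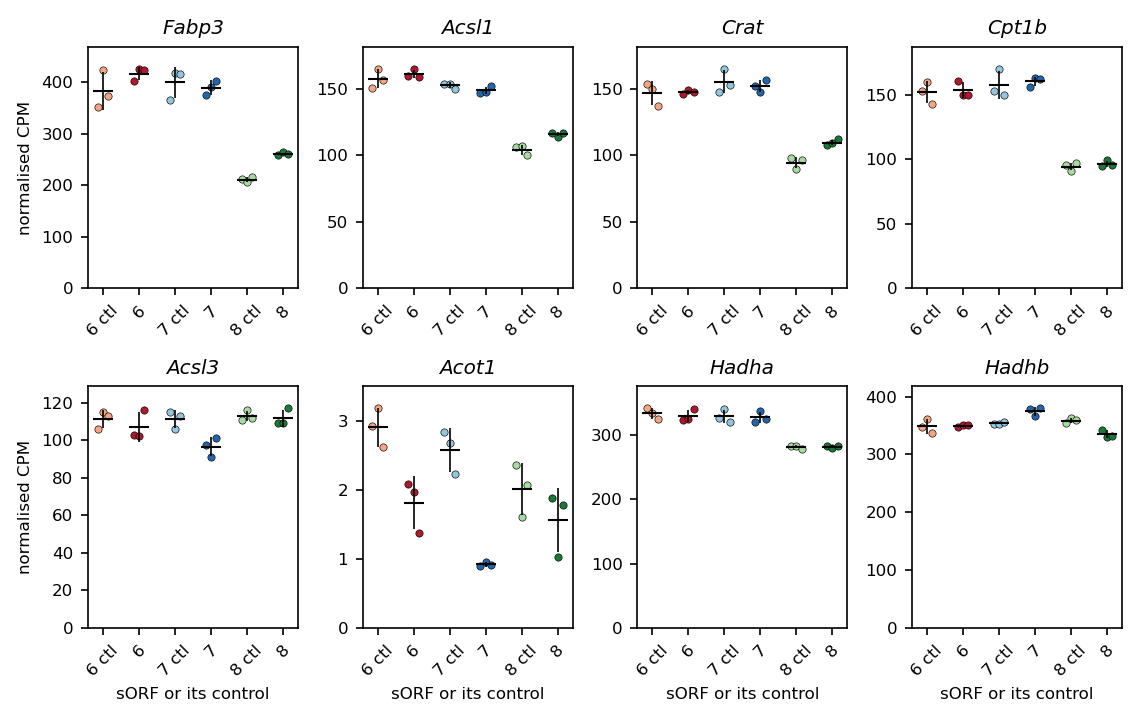
Normalised CPM of 8 genes in each library (points, 3 per group) with mean and SD (bars), for each sORF and its control virus (ctl). Fabp3 with sORF8 lies at 259 to 264 CPM above its controls at 206 to 216 CPM, and both lie below every library of the sORF6 and sORF7 experiments, while Hadhb differs little between experiments.

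A further comparison set the control groups of the experiments side by side. In the sORF8 control libraries most of the pathway was lower than in the other control libraries: 25 of 32 members were lower, 1 was higher, and the median member was 1.39-fold lower (log2 -0.47, against -0.00 for all genes, whose quartiles were -0.23 and 0.18). Of all genes, 21.3% were called lower and 21.5% higher in this comparison (42.8% in all), so a shift of this kind was common among genes in both directions while the members lay almost all on the low side. In 24 members all 3 sORF8 control libraries lay below all 6 others (18.3% of genes) and in 1 above (18.4%). The joint test of the 3 control groups called 26 of 32 members (38.4% of genes). Experiment, batch and control virus cannot be told apart here.

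Among the uptake genes, Fabp3 was at 212, 206 and 216 CPM in the sORF8 controls and at 353 to 424 CPM in the 6 others, a log2 difference of -0.89 ± 0.05 (1.86-fold lower, edgeR adjusted p = 1.28e-10). Cd36 was at 144, 149 and 144 CPM against 213 to 236 CPM (-0.59 ± 0.04, edgeR adjusted p = 4.41e-10), and Lpl at 136, 136 and 131 CPM against 153 to 160 CPM (-0.24 ± 0.03, edgeR adjusted p = 1e-05). Neither overlapped. Slc27a1 was the exception, at 33.3, 37.8 and 34.8 CPM against 20.6 to 26.1 CPM, a log2 difference of 0.55 ± 0.07 (1.47-fold higher, edgeR adjusted p = 2.33e-06). Fabp4 overlapped, at 1.12 to 1.44 against 0.695 to 1.71 CPM.

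In the activation step only Acsl1 was lower, at 106, 107 and 100 CPM against 150 to 165 CPM (-0.57 ± 0.03, edgeR adjusted p = 1.5e-10), while Acsl3 had a log2 difference of 0.02 ± 0.05 and Acsl4 of -0.09 ± 0.05. The balance of the synthetases differed with it: Acsl1 made up 32.7 ± 0.813% of their summed FPKM in the sORF8 controls, against 42.2 ± 0.682% and 41.4 ± 1.43% in the sORF6 and sORF7 controls (SD, n = 3 each), and Acsl3 47.4 ± 0.697% against 39.9 ± 0.208% and 40.5 ± 0.885%. The ranges of these shares did not overlap and were not tested further. In all 5 genes of the carnitine shuttle the sORF8 controls were lower and did not overlap. Cpt1b was at 95.3, 91.1 and 96.8 CPM against 143 to 170 CPM (-0.71 ± 0.05, 1.64-fold lower, edgeR adjusted p = 4.67e-10) and Cpt1a at 75.9, 80.7 and 79.4 CPM against 86.4 to 90.2 CPM (-0.17 ± 0.04, edgeR adjusted p = 0.000655). Cpt1b accordingly held 64.5 ± 1.13% of the FPKM of both in the sORF8 controls and 72.4 ± 0.808% and 73.1 ± 0.923% in the others.

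Crat was at 98.0, 89.7 and 96.2 CPM against 137 to 165 CPM (-0.68 ± 0.04). Cpt2, which rebuilds acyl-CoA inside the mitochondrion, was at 32.7, 29.3 and 29.8 CPM against 39.6 to 45.3 CPM (-0.50 ± 0.05), and Slc25a20 at 43.6, 44.8 and 43.8 CPM against 50.2 to 59.6 CPM (-0.31 ± 0.05). In the beta-oxidation spiral, 8 of 9 genes were lower, with a step median of -0.57. Acaa2, the thiolase that cleaves off acetyl-CoA, had the largest difference of all members, at 26.6, 30.1 and 31.3 CPM against 56.0 to 65.9 CPM (-1.04 ± 0.06, 2.06-fold lower, edgeR adjusted p = 1.15e-10). Acadl was at 130, 127 and 130 CPM against 206 to 219 CPM (-0.71 ± 0.04, edgeR adjusted p = 4.64e-11), the smallest p of any member. The hydratase Echs1 was at 35.8, 30.8 and 36.0 CPM against 54.3 to 63.5 CPM (-0.78 ± 0.06).

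The other acyl-CoA dehydrogenases were lower as well. Acads, for short chains, was at 27.1, 26.3 and 27.5 CPM against 33.0 to 44.5 CPM (-0.58 ± 0.09), Acadm, for medium chains, at 100, 103 and 106 CPM against 140 to 154 CPM (-0.50 ± 0.04), and Acadvl, for very long chains, at 86.5, 87.9 and 85.7 CPM against 102 to 112 CPM (-0.31 ± 0.04). None of the 3 overlapped. The hydroxyacyl-CoA dehydrogenase Hadh was at 44.2, 39.2 and 48.8 CPM against 57.5 to 70.4 CPM (-0.57 ± 0.06).

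The trifunctional protein differed little. Hadha was at 284, 284 and 279 CPM against 321 to 342 CPM (-0.23 ± 0.03, 1.18-fold lower, edgeR adjusted p = 2.25e-06), and Hadhb at 354, 363 and 359 CPM against 337 to 362 CPM (0.03 ± 0.03, edgeR adjusted p = 0.423), with overlap. So the pair that shares the stretch printed above did not share the call, and Hadhb held 61.4 ± 0.35% of their summed FPKM in the sORF8 controls against 56.7 ± 0.806% and 57.4 ± 0.858% in the others (SD, n = 3 each). The difference between the pair itself was not tested.

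The genes for unsaturated fatty acids were lower too. Eci1, an enoyl-CoA isomerase, was at 22.6, 25.4 and 22.8 CPM against 34.7 to 45.6 CPM (-0.75 ± 0.08), and Eci2, another isomerase, at 37.4, 36.1 and 36.4 CPM against 40.8 to 45 CPM (-0.23 ± 0.05). The dienoyl-CoA reductase Decr1 was at 29.7, 31.6 and 33.5 CPM against 32.7 to 45.2 CPM (-0.29 ± 0.08), where 1 library overlapped. Of the electron transfer genes, Etfb was at 52.5, 51.8 and 57.5 CPM against 82.1 to 102 CPM (-0.79 ± 0.06) and its partner subunit Etfa at 118, 111 and 115 CPM against 131 to 147 CPM (-0.28 ± 0.05). Etfdh, which hands the electrons to ubiquinone, was at 67.4, 69.3 and 68.3 CPM against 104 to 114 CPM (-0.67 ± 0.04). All 3 lay below every other control library.

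In the last group, Mlycd, which degrades malonyl-CoA and so lifts the brake on Cpt1, was at 36.2, 31.4 and 31 CPM against 46.1 to 54.1 CPM (-0.66 ± 0.06). Pdk4, the kinase that holds back pyruvate dehydrogenase, was at 8.52, 8.93 and 7.83 CPM against 8.93 to 13.5 CPM (-0.44 ± 0.10), just short of an overlap. Acot1 (-0.44 ± 0.20) and Acot2 (-0.13 ± 0.08) missed the threshold. Every named call here has an edgeR adjusted p of at most 0.00569, that of Decr1.

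**Figure D4:**
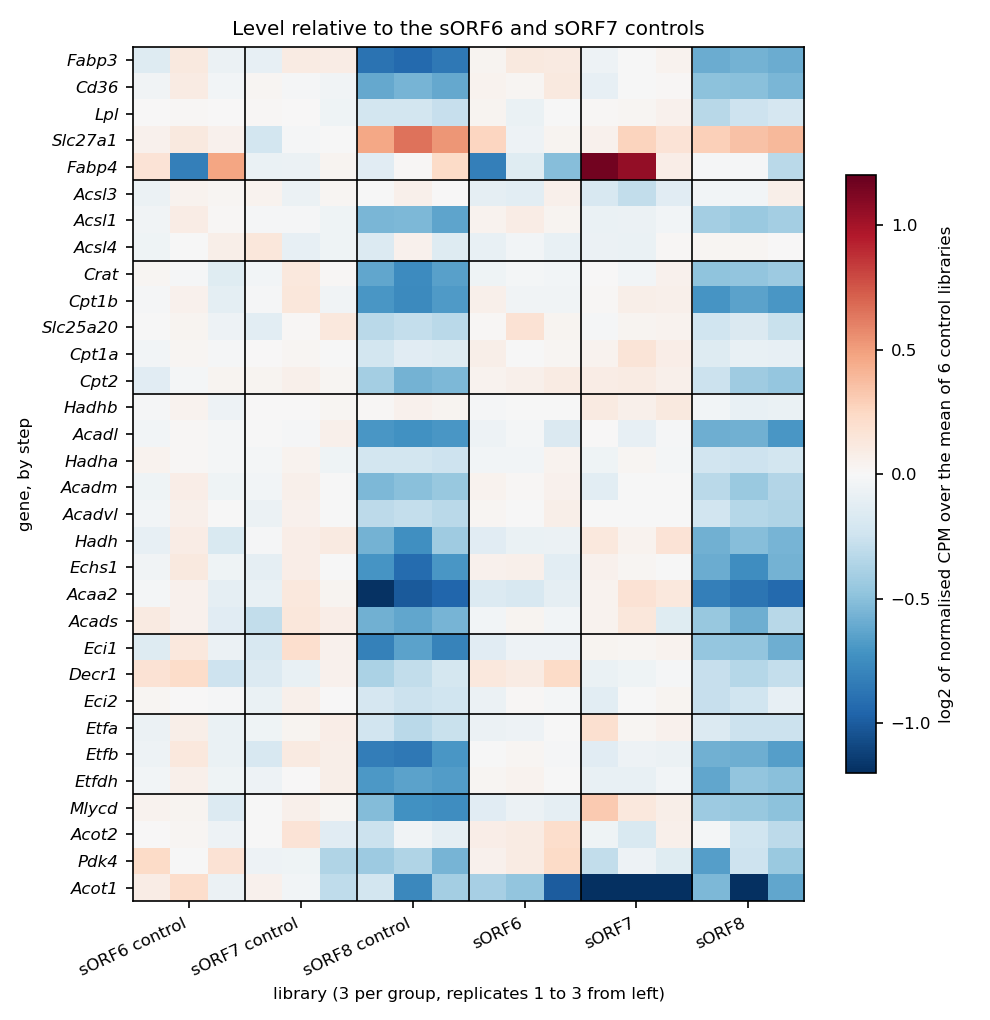
Log2 of the normalised CPM of each gene over its mean in the 6 sORF6 and sORF7 control libraries, in 18 libraries (columns), with genes grouped by step (black lines) and colours capped at 1.2 in either direction. The 3 sORF8 control and 3 sORF8 columns are blue in most rows, Slc27a1 is red there, and Hadhb and Acsl3 stay pale.

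The experiments were also compared in libraries that share no sample with the controls, between the sORF8 libraries and the mean of the sORF6 and sORF7 libraries. These belong to the same experiments and the same fit as the controls, so the comparison is not separate support. There 27 of 32 members were lower and 2 higher (15.9% and 15.7% of genes, 31.6% in all), with a median of -0.39. Those lower include all 25 that were lower in the controls, which is 100% of the first list and 92.6% of the second. This overlap was not counted for all genes, so it is not read as particular to the members. Acaa2 differed by -0.86 ± 0.06, Cpt1b by -0.70 ± 0.05 and Fabp3 by -0.63 ± 0.05, and Slc27a1 was again higher (0.22 ± 0.07). Hadhb was called here at -0.11 ± 0.03 (edgeR adjusted p = 0.00365). These libraries carry different sORFs, so sORF and experiment cannot be told apart in them.

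By contrast, the sORF6 and sORF7 controls differed by edgeR in 1 of 14870 genes (0.00672%) and in 0 of 32 members, with 1 member at an unadjusted p under 0.05 and a median member at 0.01. In 0 members did the sORF7 controls lie above all sORF6 controls (5.75% of genes), and in 2, Pdk4 and Slc27a1, below (4.52%). DESeq2 called 38 genes and 0 members. Without both libraries that stood apart, 1001 genes and 2 members were called, Fabp3 (0.20, edgeR adjusted p = 0.00668) and Eci1 (0.24, edgeR adjusted p = 0.0411), both higher in the sORF7 controls. Both libraries were picked for their likeness to the other control group, so leaving them out sets these groups apart by that choice. No conclusion is drawn from these calls. The call and direction of the 26 members in the comparison of the sORF8 controls were the same in all 494 values that alternative fits gave for them, also without those libraries.

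Markers of cell type moved with this difference. All 12 cardiomyocyte markers were lower in the sORF8 controls, with a median of -0.66 and from -0.34 for Ttn to -2.27 for Mb, the oxygen-binding myoglobin, and their summed level was 40100 to 40500 CPM against 60900 to 68100 CPM in the other controls. Of 8 fibroblast markers 4 were lower with a median of -0.13, of 7 endothelial markers 2 were higher, and of 8 macrophage markers 0 were called. Without both libraries that stood apart, 6 of the 8 fibroblast markers were called lower. Summed over the 33 members, the level was 2650 to 2670 CPM in the sORF8 controls, 2780 to 2800 CPM with sORF8, and 3450 to 3720 CPM in the other control libraries. The members' median of -0.47 was thus smaller in size than that of the cardiomyocyte markers, and the part of the markers in it was not tested.

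**Figure D5:**
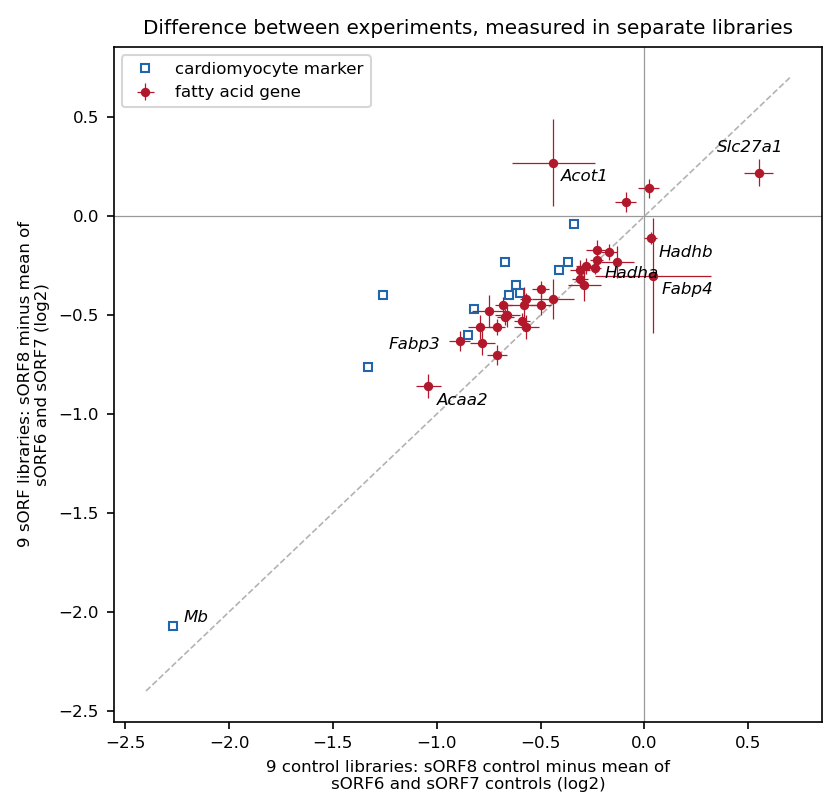
Difference of the sORF8 experiment from the other experiments in the control libraries (horizontal, log2) and in the sORF libraries (vertical, log2), for 32 fatty acid genes (red, bars are SE) and 12 cardiomyocyte markers (blue squares); the dashed line marks equal values. Most red points lie below 0 on both axes, from Acaa2 at -1.04 and -0.86 to Hadhb near 0.03 and -0.11, and Slc27a1 lies above 0 on both.

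Since most members moved together between experiments, their promoters were searched for the DR1 element of PPAR with RXR, 2 copies of AGGTCA with 1 base between them, on both strands with at most 2 letters off. RefSeq promoters of build GRCr8, 250 bases before to 50 after the start site, were found for 27 of 33 members; those of Acaa2, Acadl, Cpt1b, Decr1, Fabp4 and Lpl were not among them. DR1 occurred in 6 of 27 member promoters (22.2%) and in 1263 of 33469 promoters of the same length (3.77%). The 6 were those of Acadvl, Crat, Echs1, Etfa, Slc25a20 and Ucp3, of which Ucp3 had too few counts for a test. The 33469 promoters were not limited to genes expressed in these cells. The ERR element, TCA followed directly by AGGTCA, searched on both strands without mismatch, occurred in 0 of 27 and in 145 promoters (0.433%). A match of letters is a description of the window, not evidence of binding.

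The 250 bases before the start site are given for the closest match, in Acadvl (1 letter off), for Crat, a member called with sORF8, and for Echs1, the match with the largest difference between experiments. Capitals mark DR1. The windows are chr10:55236706-55236955, chr3:34087100-34087349 and chr1:204333507-204333756, all on the minus strand, and in Echs1 the element lies on the opposite strand to the gene. In the sORF8 controls these genes differed by -0.31, -0.68 and -0.78 in that order. The other tested genes with a match, Etfa and Slc25a20, differed by -0.28 and -0.31, and the median of all members was -0.47. Whether a match goes with the size of the difference was not tested. Hadhb and Hadha, whose windows hold no such match, differed by 0.03 and -0.23, and Fabp3, also without a match, by -0.89.
Acadvl: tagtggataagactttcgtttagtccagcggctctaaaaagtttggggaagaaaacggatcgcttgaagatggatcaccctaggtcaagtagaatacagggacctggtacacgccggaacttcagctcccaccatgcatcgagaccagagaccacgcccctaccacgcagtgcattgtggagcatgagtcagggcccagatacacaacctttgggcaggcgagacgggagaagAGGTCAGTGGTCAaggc
Crat: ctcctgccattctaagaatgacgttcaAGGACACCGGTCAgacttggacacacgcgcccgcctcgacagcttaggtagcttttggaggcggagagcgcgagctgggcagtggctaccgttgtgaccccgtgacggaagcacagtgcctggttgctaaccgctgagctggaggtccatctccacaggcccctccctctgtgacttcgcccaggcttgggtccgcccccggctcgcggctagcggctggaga
Echs1: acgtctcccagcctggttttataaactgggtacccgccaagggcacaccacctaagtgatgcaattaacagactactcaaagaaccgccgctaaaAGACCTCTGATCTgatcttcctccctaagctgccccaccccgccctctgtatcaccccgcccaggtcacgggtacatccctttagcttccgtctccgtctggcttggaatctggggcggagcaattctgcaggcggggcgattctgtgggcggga

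Beyond the members, 68 other genes of fatty acid handling were listed and 64 passed the filter. With sORF6, 1 rose and 4 fell, 7.81% of the list beside 3.85% of all genes called. Angptl4, an inhibitor of lipoprotein lipase and a PPAR target, was at 7.27, 6.19 and 6.58 CPM against 11.0, 11.8 and 12.5 CPM (-0.82 ± 0.09, edgeR adjusted p = 9.58e-06) without overlap. The RNA of Lpl was not called, and the activity of the lipase was not measured here. Fabp5 (-0.25 ± 0.05, edgeR adjusted p = 0.00636) and Bdh1 (-0.28 ± 0.07, edgeR adjusted p = 0.0294) also fell, and Ppara, the PPAR of heart and liver, rose from 41.1, 38.1 and 40.9 CPM to 51.1, 50.1 and 47.7 CPM (0.31 ± 0.06, edgeR adjusted p = 0.00752). Without both libraries that stood apart the call of Bdh1 was lost (-0.26, edgeR adjusted p = 0.0868) and those of Angptl4, Fabp5 and Ppara held. In that fit 2 genes of the list were higher and 3 lower.

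With sORF7, 4 of the 64 rose and 1 fell, 7.81% of the list, which is close to the 7.77% of all genes called. Dgat2, which makes triglyceride, was at 18.6, 16.3 and 17.6 CPM against 10.1, 12.9 and 11.6 CPM (0.60 ± 0.11, edgeR adjusted p = 0.0016), Plin2, a lipid droplet coat protein, rose by 0.24 ± 0.04 (edgeR adjusted p = 0.00169), and Acadsb, a dehydrogenase of branched short chains, was lower (-0.23 ± 0.04, edgeR adjusted p = 0.00289). The other rises were those of Bdh1, a ketone body dehydrogenase, and Pnpla2, the triglyceride lipase. All 5 calls held without both libraries that stood apart, where 6 genes of the list were higher and 2 lower. With sORF8, 4 rose and 0 fell, 6.25% of the list beside 3.75% of all genes. Oxct1, which activates ketone bodies, rose by 0.15 ± 0.03 (edgeR adjusted p = 0.0159), Acacb, which makes the malonyl-CoA that blocks Cpt1, by 0.30 ± 0.07 (edgeR adjusted p = 0.0247), and Pdk2, a kinase of pyruvate dehydrogenase, by 0.23 ± 0.06 (edgeR adjusted p = 0.032). The fourth was Plin3, another droplet coat protein. Without both libraries that stood apart, 6 genes of the list were higher with sORF8 and 0 lower.

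Responses differed between sORF6 and sORF7 in 11 of the 64 genes (17.2%, beside 11.2% of all genes). By p these were led by Angptl4 (-0.91 ± 0.13, edgeR adjusted p = 8.28e-05), Bdh1 (-0.60 ± 0.10, edgeR adjusted p = 0.000381) and Plin2 (-0.37 ± 0.06, edgeR adjusted p = 0.000441), each lower with sORF6. Between sORF6 and sORF8 they differed in 4 (6.25%, beside 3.69%): Angptl4 (-0.93 ± 0.13), Oxct1 (-0.25 ± 0.05), Bdh1 (-0.44 ± 0.10) and Plin3 (-0.31 ± 0.08). Between sORF7 and sORF8 they differed in 5 (7.81%, beside 7.72%): Dgat2 (0.88 ± 0.16), Acadsb (-0.26 ± 0.06), Acacb (-0.40 ± 0.10), Ppara (-0.33 ± 0.10) and Pdk1 (-0.20 ± 0.06). The call of Pdk1 was lost without both libraries that stood apart (edgeR adjusted p = 0.0536). In that fit 4 genes of the list were higher and 9 lower with sORF6 than with sORF7. Between sORF6 and sORF8 0 were higher and 6 lower, and between sORF7 and sORF8 1 was higher and 8 lower.

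In the sORF8 controls 32 of the 64 were lower and 9 higher than in the other controls, with a median of -0.16, so 64.1% of the list was called beside 42.8% of all genes (21.3% lower and 21.5% higher). Without both libraries that stood apart 31 were lower and 9 higher. Oxct1 was at 305, 309 and 296 CPM there against 447 to 490 CPM (-0.62 ± 0.03, edgeR adjusted p = 1.37e-11), and Acat1, the acetoacetyl-CoA thiolase (-0.64 ± 0.05), and Acacb (-0.79 ± 0.06) were lower as well.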

How the data were processed

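Per the submitters' processing notes, the authors used HISAT2 2.0.4, RSEM 1.2.12 and DESeq2 1.4.5 and the rat build Rnor_6.0, with no roles named. Whether strand was used in counting is not stated in what was read here. Per the file headers, the table the authors deposited holds estimated counts per gene, which need not be whole, since RSEM can divide reads between similar genes, and FPKM values, which are scaled for length and library total. The authors' deposited log2 fold changes and p-values and q-values, and their group means, were not used. Columns without a sample numbered 0.

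After rounding to whole numbers, counts were tested in edgeR 4.0.16 (R 4.3.3, quasi-likelihood test, TMM scaling, filterByExpr with a minimum count of 10, 1 mean per group over all 18 libraries, 12 residual degrees of freedom), with Benjamini-Hochberg adjustment and an adjusted p under 0.05. The common biological variation was 6.9%. Depth per library limits precision mainly for Acot1, Fabp4 and Ucp3. Alternatives were DESeq2 1.42.0, limma 3.58.1 on log2(FPKM + 1) and log2(FPKM + 0.1), other scaling, no filter, a length offset, fewer libraries, a replicate block and leaving out libraries.

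The members and lists were chosen with earlier results of these data known. Per-library values are given for members called in a virus comparison, a difference of responses or the joint control test, full statistics for the 8 with the smallest adjusted p and for Cd36, Fabp3, Lpl, Cpt1a and Cpt1b, and levels for the 5 highest by FPKM. In the second list the 3 smallest adjusted p per comparison are named, and further genes where a count was 5 or fewer, chosen after their values were seen; 1 gene of it is not reported by name here. Leaving out both control libraries that stood apart, the comparison of the sORF8 arm with the other arms and that of the sORF7 with the sORF6 controls were added after seeing the data. Promoters come from RefSeq, build GRCr8, and coordinates in the table are Rnor_6.0.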

Additional observations from a re-analysis of the deposited data

Results flagged for a closer look

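For 5 members the response to sORF7 differed from that to sORF8 by a test of the difference itself (edgeR interaction contrast, adjusted over all genes). Fabp3 differed by -0.35 (adjusted p = 0.0121) and Hadhb by 0.18 (adjusted p = 0.0158). Slc27a1 differed by 0.45 (adjusted p = 0.0203), Acsl1 by -0.19 (adjusted p = 0.0378) and Crat by -0.24 (adjusted p = 0.0422). Of 110 values that alternative fits gave for these 5 members, 32 lost the call and 0 reversed. Fabp3 and Hadhb kept their calls throughout, Slc27a1 lost its call in some fits, and Acsl1 and Crat lost theirs in most. Cardiomyocyte markers differed in the direction of Fabp3, Acsl1 and Crat with a median of -0.37, and opposite to Hadhb and Slc27a1, and their part was not tested. In these differences sORF and experiment cannot be told apart.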

How the results depend on the processing

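No result changed direction past its threshold under any alternative run. The 26 calls between the sORF8 controls and the others held in every alternative run, as did Fabp3 with sORF8 and Acot1 with sORF7, while Crat, Acsl1 and Acsl3 lost theirs in some. With only the libraries compared in the fit, the genes called were 318 with sORF6 and 627 with sORF7, with 1 member for sORF7. With a length offset sORF8 had 923 genes and 5 members, sORF6 had 1 member and the sORF6 and sORF7 responses differed in 1. Without both libraries that stood apart, sORF8 had 963 genes and 6 members, sORF6 had 1 member, the sORF6 and sORF7 responses differed in 3 and the sORF7 and sORF8 responses in 9. The latter differed in 3 members with no scaling and with limma at either pseudocount. Between the sORF7 and sORF6 controls DESeq2 called 38 genes, limma 2 at either pseudocount, the length offset 6, and no filter and only the libraries compared 0, against 1001 genes and 2 members without both libraries. The pair was picked for likeness to the other control group, so the rise between the sORF7 and sORF6 controls is in part fixed by that choice. The cause of the other changes was not tested.

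Leaving out 1 library at a time gave 368 to 529 genes and 0 to 1 members with sORF6, 680 to 955 and 1 to 3 with sORF7, and 265 to 387 and 1 to 2 with sORF8. Members differing between responses ran from 0 to 2 for sORF6 and sORF7, 0 to 1 for sORF6 and sORF8 and 2 to 6 for sORF7 and sORF8, and the sORF7 and sORF6 controls differed in 0 to 71 genes. The comparison of the sORF8 controls kept 26 to 27 members. Same-numbered libraries of a sORF and its control correlated at -0.025 to 0.115 in their deviations, and differently numbered ones at -0.132 to 0.087. These ranges overlap, and with 3 libraries per group they do not settle whether the numbers pair libraries. A replicate block gave 0, 2 and 2 members for sORF6, sORF7 and sORF8, 3 members between the sORF7 and sORF8 responses, and 0 genes between the sORF7 and sORF6 controls. Depth limits Acot1 and Fabp4 most.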
